A study of Mus musculus with 5 samples.

Results

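The insulin-like growth factor binding proteins are secreted carriers, and the genes Igfbp2, Igfbp3, Igfbp4, Igfbp5, Igfbp6 and Igfbp7 were followed here in the ventromedial hypothalamus (VMH) of mice, a nucleus known for its part in satiety and energy balance. These 6 genes, of 12393 with a probe set of their own, are represented by 14 of the 22690 probe sets of the array, namely 6 for Igfbp4, 3 for Igfbp7, 2 for Igfbp5 and 1 each for Igfbp2, Igfbp3 and Igfbp6. The probe sets are all those annotated to the 6 genes. The family was picked by the very low readings of Igfbp4 and Igfbp5 on the array of 1 shock at 6 h, so those readings are given as a description and support nothing further.

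All groups were C57Bl/6 mice. Those given electroconvulsive seizure (ECS) were anaesthetised with isoflurane and shocked through ear clips at a current of 25 mA for 1 sec, and sham mice were handled alike without current. The groups were sham collected at 2 h, 1 shock collected at 2 h, 1 shock collected at 6 h, 7 shocks collected at 2 h and 7 shocks collected at 6 h, and each is 1 array of VMH RNA pooled from 2 or 3 mice. Readings listed for the 5 arrays without further words follow that order. Ages and sexes are not given in the labels. The 6 h arrays have no sham of their own time, and the array work is described as also done on another set of animals, which is not analysed here. With 1 array per group analysed here, the spread within a group is unknown, no value below has an error or a test, and precision is limited by having 5 arrays. A descriptive field names the paraventricular nucleus where the titles name the VMH. The VMH transcription factor gene Nr5a1 read 50.4 to 173.3 over the arrays. Of genes of paraventricular neurons, Oxt read 11.5 to 61.8, Avp 5.1 to 54.8, Trh 90.8 to 184 and the dim Sim1 1.1 to 14.3. Brightness cannot be compared between probe sets, so these values do not settle which nucleus was taken.

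Insulin-like growth factors (IGFs) circulate and act in tissue largely bound to these proteins, which lengthen their life, hold them at the matrix and keep them from the IGF-1 receptor. Proteases such as PAPP-A, which cuts the protein made from Igfbp4, free the growth factor again. In brain, members of the family are made by particular sets of neurons, by glia, by vessel cells and by the meninges, and IGF signalling supports neuron survival, synapse maintenance and the hypothalamic sensing of nutrients.

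The genes lie on 4 chromosomes of the mouse genome (RefSeq, GRCm38.p6). Igfbp2 (chr1:72824480-72852474) and Igfbp5 (chr1:72858065-72874865) are neighbours 5.59 kb apart on chromosome 1. Igfbp3 (chr11:7206086-7215498) and Igfbp4 (chr11:99040005-99052655) are far apart on chromosome 11, Igfbp6 (chr15:102144186-102149512) is on chromosome 15 and Igfbp7 (chr5:77349240-77408045) on chromosome 5. The upstream sequences of Igfbp4 and Igfbp5 are shown because these genes stood out together on 1 array. Each is the 250 bases before the RefSeq start, 5′ to 3′ on the gene's own strand, at chr11:99040994-99041243 (plus strand) for Igfbp4 and chr1:72874866-72875115 (minus strand) for Igfbp5, with motif matches in capitals. The Igfbp4 window lies inside the span given for the gene, because the start in the promoter table is downstream of the outermost one.
Igfbp4: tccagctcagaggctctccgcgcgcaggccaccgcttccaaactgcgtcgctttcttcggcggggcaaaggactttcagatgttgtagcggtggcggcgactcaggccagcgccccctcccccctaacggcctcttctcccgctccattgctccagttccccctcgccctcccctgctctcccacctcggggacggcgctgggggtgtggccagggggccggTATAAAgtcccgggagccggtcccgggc
Igfbp5: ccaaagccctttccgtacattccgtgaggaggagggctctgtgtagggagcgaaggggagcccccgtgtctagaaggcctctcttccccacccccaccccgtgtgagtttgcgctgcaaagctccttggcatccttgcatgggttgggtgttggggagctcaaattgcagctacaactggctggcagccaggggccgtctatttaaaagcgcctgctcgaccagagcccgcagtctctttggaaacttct
The motifs searched on both strands were the TATA box TATAAA, the E-box CACGTG, the cAMP response element TGACGTCA, the AP-1 site TGANTCA, the EGR site GCGNGGGCG, the FOXO site GTAAACA and the CCAAT box CCAAT. Igfbp4 held 1 match, a TATA box that begins 28 bases before the start, and TATAAA occurs in 12.4% of the 32851 RefSeq promoter windows of this length. Igfbp5 held no match. The activity-related motifs are rare in such windows, at 1.55% for TGACGTCA, 6.75% for TGANTCA and 4.7% for GCGNGGGCG. GC content was 69.2% for Igfbp4 and 58.8% for Igfbp5, against a median of 52.4% over all windows. The windows shared none of these motifs, and the matches describe the letters only.

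The deposited values are MAS5 signals, 1 brightness value per probe set on a linear scale. Their median was 20.3 to 31.6 per array, and relative to sham the bulk of the probe sets was shifted by -0.13 (1 shock, 2 h), 0.40 (1 shock, 6 h), 0.51 (7 shocks, 2 h) and 0.49 (7 shocks, 6 h) on the log2 scale. Differences below are log2 differences after a pseudocount of 1.2 and after each array's kept probe sets were given a common median, which removes these shifts, while signals are as deposited. Because the pseudocount pulls low values together, the differences understate changes of dim probe sets. A difference of 1 or more on this scale, or 2-fold, counts as past the threshold. Probe sets with a mean signal of at least 28.38, the upper 50%, were kept for counts, which left 10401 probe sets, 9 of them from the family (5 of Igfbp4, 2 of Igfbp5, 1 each of Igfbp3 and Igfbp7). The dimmest kept member was Igfbp3, with a mean of 32.1, and the brightest member below the line was Igfbp6, with 19.66. Of the kept Igfbp4 probe sets, 1423756_s_at and 1421992_a_at passed only through the 7-shock arrays: their means over the other 3 arrays were 10.9 and 16.4. Wherever a 7-shock array is called higher for these, the filter helped to set the call. In pooled tissue RNA, fewer cells of a type and less RNA per cell cannot be told apart.

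Igfbp4, whose product is regarded mainly as an inhibitor of IGF action, gave the brightest probe set of the family, 1437405_a_at. It read 136.7 on the sham array, 149.6 at 2 h after 1 shock, 3.6 at 6 h after 1 shock, 505.0 at 2 h after 7 shocks and 561.8 at 6 h after 7 shocks. The sham and 1 shock 2 h arrays lay close together, both 7-shock arrays lay above them, and the 1 shock 6 h array read far below all others. Against sham the log2 differences were 0.26, -5.24, 1.37 and 1.54 for the single-shock arrays at 2 h and 6 h and the 7-shock arrays at 2 h and 6 h. The signal of 3.6 is dim, since the 25th percentile over all arrays is 6.1, and with that as the pseudocount the difference of -5.24 became -4.26.

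The other Igfbp4 probe sets showed how far this pattern holds within the gene. Probe set 1423756_s_at read 15.8 (sham), 16.7 (1 shock, 2 h), 0.1 (1 shock, 6 h), 177.7 (7 shocks, 2 h) and 134.5 (7 shocks, 6 h). It had the widest range of the 6, with log2 differences from sham of 2.89 and 2.51 on the 7-shock arrays. Probe set 1423757_x_at read 59.9, 36.9, 6.3, 159.2 and 157.7. Probe set 1437406_x_at read 40.7, 39.0, 6.5, 112.6 and 113.8, so both of these repeated the order of low, middle and high arrays at smaller size. Probe set 1421992_a_at read 21.2, 19.8, 8.3, 38.2 and 75.4, with the 7 shock 6 h array alone clearly above the rest.

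The dim sixth probe set, 1421991_a_at, departed from the others after 7 shocks. It read 21.4, 25.4, 5.1, 19.6 and 11.2, so it too was lowest at 6 h after 1 shock, but its log2 differences from sham were -0.63 and -1.35 on the 7-shock arrays. All 6 Igfbp4 probe sets were thus lowest on the 1 shock 6 h array, by log2 differences from sham of -1.63 to -5.24. On the 7-shock arrays 5 of 6 were above sham at both times, and the kept ones ranged from 0.31 to 2.89 at 2 h and from 0.89 to 2.51 at 6 h. The 6 probe sets were designed from 3 sequence records, 2 from each, and read the same RNA pools, so they are repeated readings of 1 gene and not replicates.

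**Figure D1:**
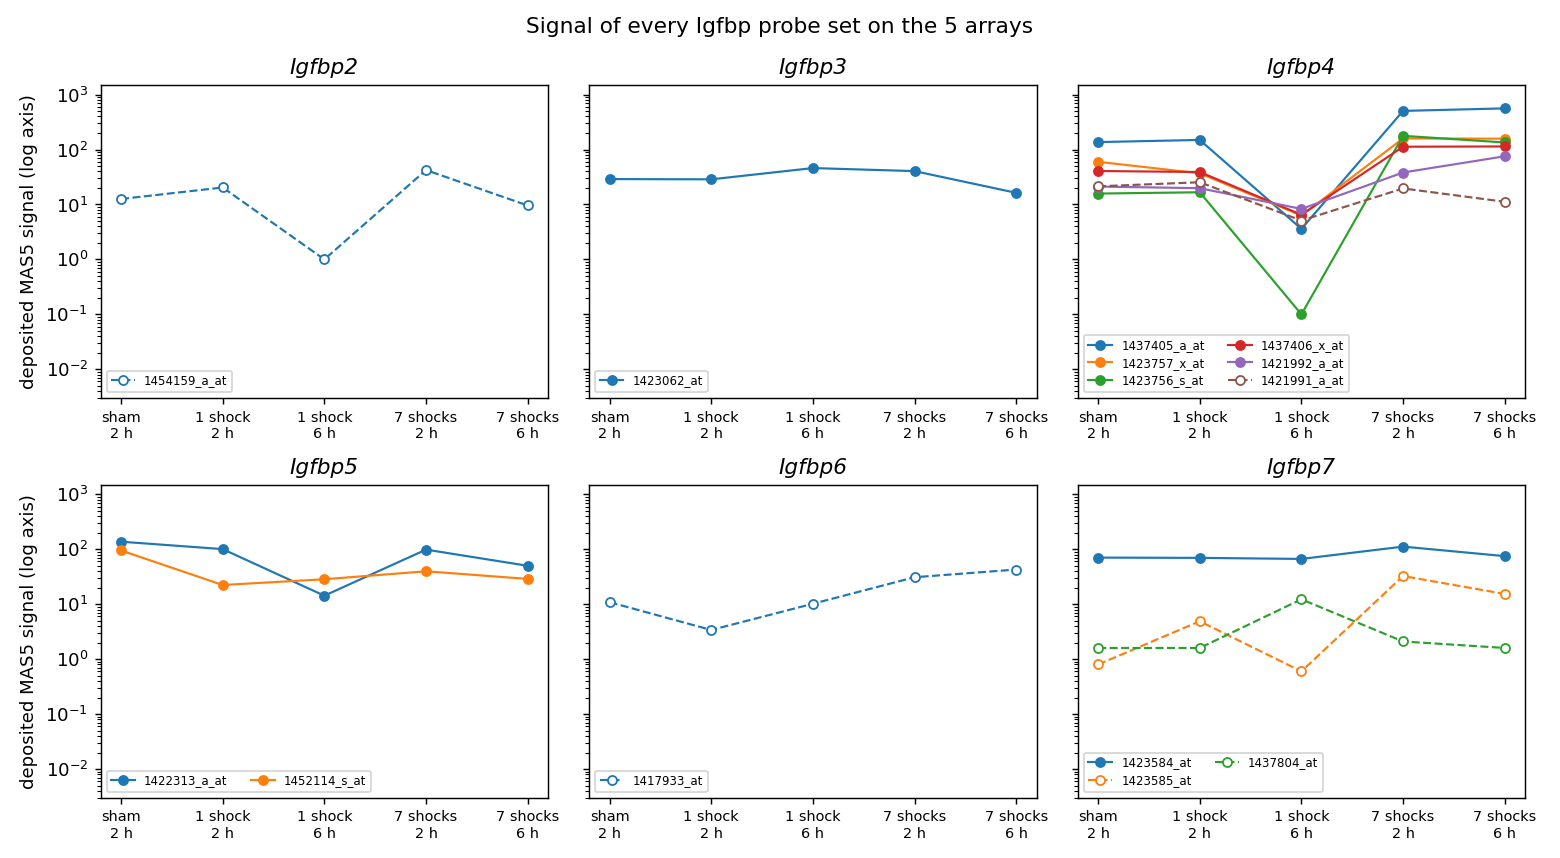
Deposited MAS5 signal (log axis) of all 14 Igfbp probe sets on the 5 arrays, 1 panel per gene; filled points with solid lines are probe sets kept for counts and open points with dashed lines are dim ones. The Igfbp4 probe sets dip together on the 1 shock 6 h array, with 1437405_a_at at 3.6 there against 136.7 on sham and 561.8 at 6 h after 7 shocks.

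Igfbp5, which encodes a binding protein that also attaches to extracellular matrix, showed another order of arrays. Its probe set 1422313_a_at read 137.5 on sham, 100.8 at 2 h after 1 shock, 14.3 at 6 h after 1 shock, 98.7 at 2 h after 7 shocks and 50.1 at 6 h after 7 shocks. Sham was the highest array and both 6 h arrays were the lowest. Its log2 differences from sham were -0.31, -3.56, -0.98 and -1.92.

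The other Igfbp5 probe set, 1452114_s_at, did not single out the 1 shock 6 h array. It read 95.2 on sham and then 22.4, 28.5, 39.8 and 28.9 on the ECS arrays in the same order. Every ECS array lay at least 2-fold below sham, with log2 differences of -1.90, -2.09, -1.74 and -2.17. Between 2 h and 6 h after 1 shock it differed by -0.20, against -3.25 on 1422313_a_at. The probe sets therefore differ on how low the 1 shock 6 h array is relative to 1 shock at 2 h, and share the sign in all 4 comparisons with sham. Those 4 comparisons use the same sham array. Relative to the mean of the other 4 arrays, sham itself stood 1.69 higher on 1422313_a_at and 1.97 higher on 1452114_s_at. The 99th percentile of all kept probe sets was 1.55. For 1422313_a_at that mean includes the low 1 shock 6 h reading that helped to choose the family, which raises the 1.69.

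Igfbp3, which encodes the main carrier of IGFs in blood, had 1 kept probe set. It read 29.0 on sham, 28.7 at 2 h after 1 shock, 46.0 at 6 h after 1 shock, 40.5 at 2 h after 7 shocks and 16.3 at 6 h after 7 shocks. The low array here was 7 shocks at 6 h, with a log2 difference of -1.27 from sham, which was -0.79 without rescaling. On the 1 shock 6 h array it was 0.25 above sham, opposite in sign to Igfbp4 and Igfbp5.

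Igfbp7, a relative with low affinity for IGFs that is abundant in vessel walls, was steady on its bright probe set. Probe set 1423584_at read 70.6, 69.8, 66.8, 111.9 and 75.1. Its 8 log2 differences lay between -0.59 and 0.15, none past 2-fold. The dim probe sets of the gene went opposite ways: 1423585_at read 0.8, 4.9, 0.6, 32.6 and 15.4, and 1437804_at read 1.6, 1.6, 12.3, 2.1 and 1.6. With such low signals neither is read as a change of the gene.

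Igfbp2 and Igfbp6 were below the filter. Igfbp2, a binding protein of glia, meninges and the developing brain, read 12.6 on sham, 20.4 at 2 h after 1 shock, 1.0 at 6 h after 1 shock, 42.3 at 2 h after 7 shocks and 9.6 at 6 h after 7 shocks. Its lowest array was the same as for Igfbp4, at -3.04 from sham on dim signals, and both 6 h arrays lay below the 2 h array of the same shock number. Igfbp6, whose product prefers IGF-2, read 10.9, 3.4, 10.2, 31.0 and 42.8. Both 7-shock arrays were its highest, at 0.90 and 1.38 from sham, and the 1 shock 6 h array was close to sham at -0.48.

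**Figure D2:**
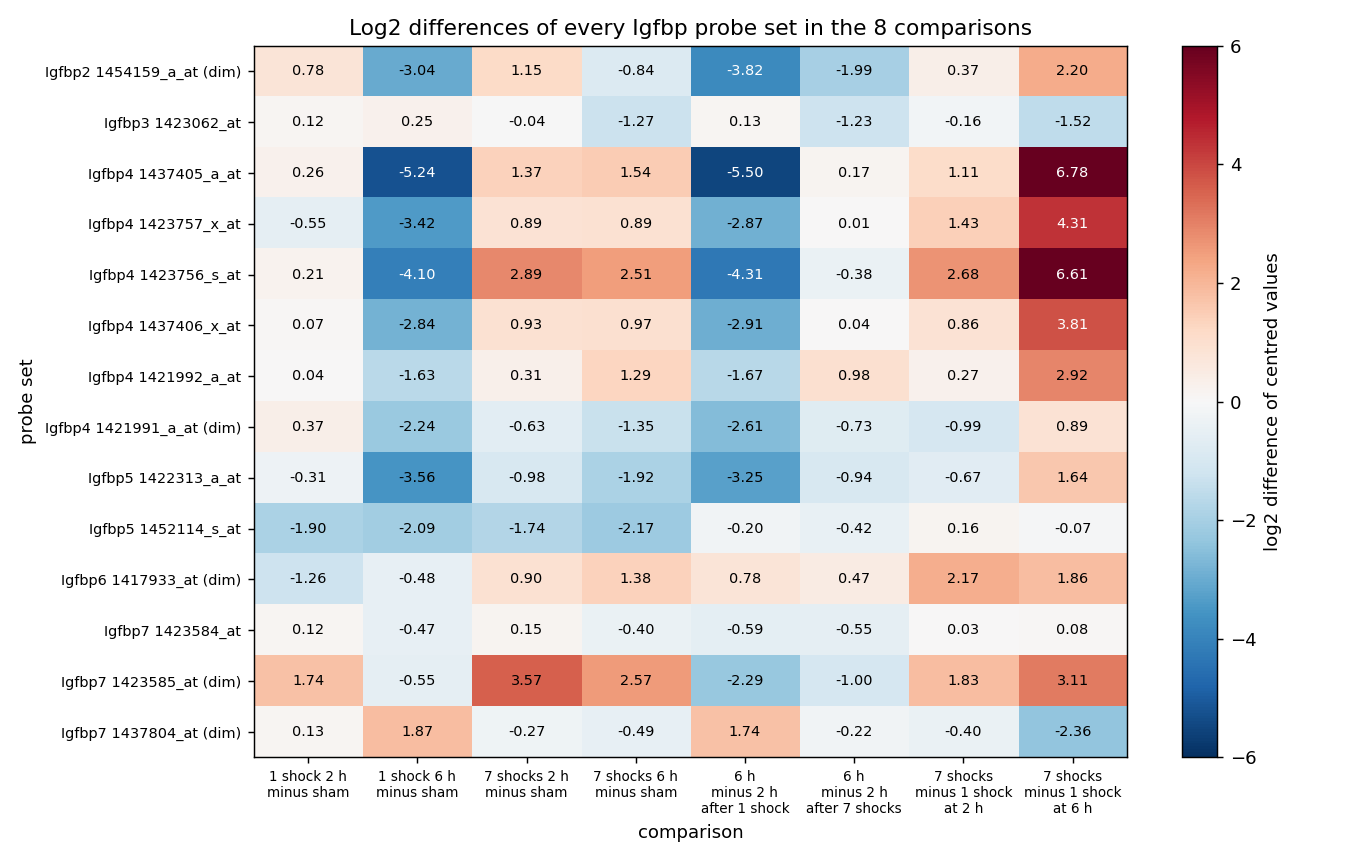
Log2 differences of centred values for the 14 Igfbp probe sets (rows, with those below the filter marked dim) in the 8 comparisons (columns); red is higher and blue lower in the group named first. The deepest blue cells are 1437405_a_at of Igfbp4 for the 1 shock 6 h array (-5.50 against 1 shock at 2 h and -5.24 against sham), and the Igfbp5 probe sets are blue in all 4 comparisons with sham.

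Of the 9 kept probe sets, 1 was past 2-fold from sham at 2 h after 1 shock, the comparison that asks what a single seizure does at a matched time. It was 1452114_s_at of Igfbp5, lower at -1.90, where 6.18% of all kept probe sets were at least 2-fold higher and 7.12% lower. The count is near the share of all kept probe sets and describes nothing particular to the family. Among the dim probe sets, Igfbp6 (-1.26) and 1423585_at of Igfbp7 (1.74) also passed. The median difference of the 9 was 0.07, beside 0.00 for all kept probe sets. Since 5 of the 9 are repeated readings of Igfbp4, counts and medians of the 9, here and below, weigh that gene most. Of the 5 kept Igfbp4 probe sets 4 were above 0 and 1 below, between -0.55 and 0.26.

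At 2 h after 7 shocks, also matched to sham in time, 2 kept probe sets were at least 2-fold higher, both of Igfbp4, and 1 was lower, of Igfbp5. Of all kept probe sets 7.07% were higher and 7.05% lower. The family's median was 0.31, and that of all kept probe sets was 0.01. Of the higher ones, 1423756_s_at was kept only through the 7-shock arrays, and 1437405_a_at passed the filter without them. All 5 kept Igfbp4 probe sets were above sham, with a median of 0.93. Without rescaling 5 family probe sets passed, 4 of them higher.

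At 6 h after 7 shocks, 3 kept probe sets were higher and 3 lower than the 2 h sham, beside 7.45% and 7.65% of all kept probe sets. The higher ones were all of Igfbp4 (1437405_a_at, 1423756_s_at and 1421992_a_at), and the lower ones were both of Igfbp5 and that of Igfbp3. Of these 3 Igfbp4 probe sets, only 1437405_a_at passed the filter without the 7-shock arrays. The median of the 9 was 0.89, itself an Igfbp4 reading (1423757_x_at), beside 0.02 for all kept probe sets. The kept probe sets of Igfbp3 (-1.27), Igfbp5 (-1.92 and -2.17) and Igfbp7 (-0.40) all lay below sham, so this median does not describe the family as a whole. The Igfbp4 probe sets alone had a median of 1.29.

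At 6 h after 1 shock, the comparison whose readings chose the family, 7 of 9 kept probe sets were at least 2-fold lower than sham and none higher. In that comparison 8.55% of all kept probe sets were lower and 6.78% higher, and nothing is read from the difference between these shares. The family's median was -2.84. The 2 outside the call were Igfbp3 (0.25) and Igfbp7 (-0.47).

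The comparisons of time and of shock number ask whether the later stage differs from the earlier and whether repeated shocks differ from 1. Between 2 h and 6 h after 7 shocks Igfbp3 was the only kept probe set past 2-fold, at -1.23, with 7.2% of all kept probe sets lower and 6.97% higher. Among the dim ones Igfbp2 (-1.99) and, just past the threshold, 1423585_at of Igfbp7 were lower too. The kept Igfbp4 probe sets lay between -0.38 and 0.98 in it, so none of them passed 2-fold between the 7-shock arrays. Between 2 h and 6 h after 1 shock 6 of 9 passed, all lower, with 8.53% of all kept probe sets lower and 7.97% higher. That comparison contains the array that chose the family.

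At 2 h, 7 shocks against 1 shock gave 3 probe sets past 2-fold, all higher and all of Igfbp4 (1437405_a_at at 1.11, 1423757_x_at at 1.43 and 1423756_s_at at 2.68), with 7.92% of all kept probe sets higher and 6.96% lower. Neither array of this comparison was used to choose the family, and it uses no sham array, but 1423756_s_at was kept only through the 7-shock arrays. The other kept Igfbp4 probe sets were at 0.86 and 0.27, and the dim one was at -0.99. At 6 h, 7 shocks against 1 shock gave 6 higher and 1 lower, with 9.48% and 8.45% of all kept probe sets, and 1437405_a_at differed by 6.78. The lower one was Igfbp3, at -1.52. This 6 h comparison contains the array that chose the family, so its count and the 6.78 support nothing further. Of its higher probe sets, 1423756_s_at and 1421992_a_at were also kept only through the 7-shock arrays.

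**Figure D3:**
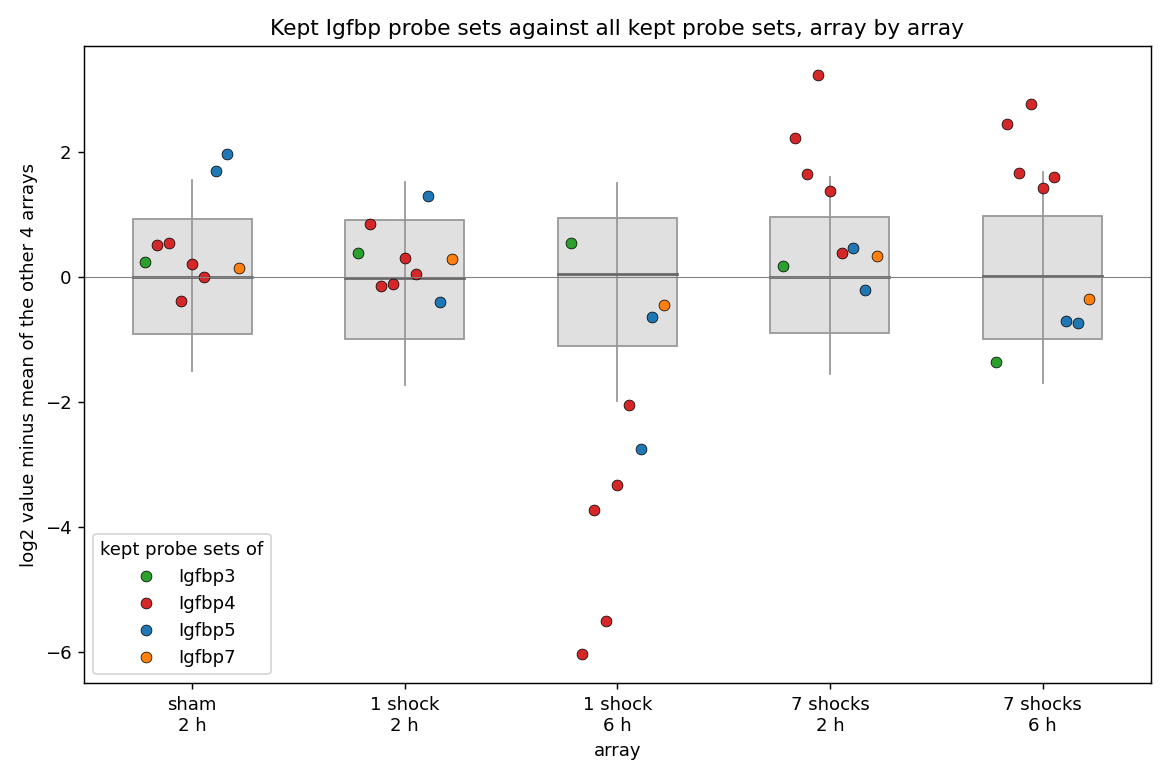
Log2 value of each kept Igfbp probe set (points, coloured by gene) minus its mean on the other 4 arrays, for each array in turn; grey boxes span the 5th to 95th percentile, grey lines the 1st to 99th percentile and the bar the median of all 10401 kept probe sets. The 5 Igfbp4 points lie between -6.03 and -2.04 on the 1 shock 6 h array and between 0.38 and 3.23 on the 7 shock 2 h array, and both Igfbp5 points lie above 1.6 on sham. On every other array, the mean that a point is set against includes its 1 shock 6 h reading.

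Array by array, the family's low readings sat on the 1 shock 6 h array. On it 6 of the 9 kept probe sets were at least 2-fold below each of the other 4 arrays, beside 1.82% of all kept probe sets, and 4 were at least 4-fold below, beside 0.365%. These counts rest on the readings that chose the family. On the other 4 arrays the same 2-fold count was 0, 0, 0 and 1 for sham, the single-shock array at 2 h, and the 7-shock arrays at 2 h and 6 h, with 0.74%, 1.14%, 0.942% and 1.19% of all kept probe sets. That 1 probe set was Igfbp3. In the other direction, 1452114_s_at of Igfbp5 was at least 2-fold above each other array on sham, as were 0.711% of all kept probe sets. On the 7-shock arrays the Igfbp4 points in the plot of each array against the others are raised by the low 1 shock 6 h array, which enters the mean they are set against. The sham point of 1422313_a_at of Igfbp5 is raised in the same way.

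The 1 shock 6 h array also differed in a control. The dap control transcript, read by its 3′ probe set, stood at 15.6 times the array median there and at 5.00 to 7.41 times on the others. The 3′ to 5′ ratio of the Gapdh control, a sign of RNA and amplification quality, was 5.37 on it and 5.55 to 8.77 on the others, and that of beta-actin was 1.10 against 0.593 to 0.889. Their part in the Igfbp readings was not tested.

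The genes with the pattern most like that of Igfbp4 were found by the distance between log2 profiles over the 5 arrays, each centred on its own mean, over 6665 kept genes at their brightest probe set. The nearest was Tbr1, a transcription factor of excitatory neurons of the cortex and amygdala, at a distance of 0.64. It read 54.6 on sham, 47.8 at 2 h after 1 shock, 0.9 at 6 h after 1 shock, 133.6 at 2 h after 7 shocks and 154.3 at 6 h after 7 shocks. Like Igfbp4 it was lowest on the 1 shock 6 h array and higher on both 7-shock arrays than on sham, by 0.77 and 0.99.

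The next nearest were farther away, at 2.21 to 2.70. They were Vip, a neuropeptide gene, C1ql3, a secreted synaptic protein, Cabyr, a calcium-binding protein, Brd3, a reader of acetylated histones, Rasgrp1, an activator of Ras, Znrf2, a ubiquitin ligase, and Pdzrn3, another ubiquitin ligase. Vip read 41.9, 41.7, 3.3, 89.5 and 67.9, again with both 7-shock arrays highest. C1ql3 read 49.3, 51.7, 8.8, 225.4 and 174.4, and Rasgrp1 read 106.5, 56.6, 13.7, 252.2 and 236.0. The other kept probe sets of these last genes, 2 each, were also low on the 1 shock 6 h array, at -2.19 to -1.69 for C1ql3 and -2.87 to -2.47 for Rasgrp1 against the mean of the other arrays. Cabyr lay above sham at 2 h and 6 h after 7 shocks (0.99 and 1.53). Brd3 (-0.80 at both times), Znrf2 (-0.20 and -0.10) and Pdzrn3 (-0.67 and -0.07) lay below it, unlike Igfbp4.

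The pattern of Igfbp5, taken from 1422313_a_at, had other neighbours. The nearest was Adam12, a metalloprotease that can cut IGF binding proteins, at a distance of 0.76, with readings of 67.7, 23.9, 5.1, 35.4 and 20.4. It shared with Igfbp5 the high sham array and the low 6 h arrays. Adam12 would not have passed the filter without its sham reading, so the filter helped to set the likeness on sham. Adam12 was followed by Rassf2, the mitochondrial folate enzyme Mthfd2, Zfp33b, Osbpl6, Dus1l, the vascular growth factor gene Vegfa and Zcchc7, at 0.93 to 1.36. Rassf2, Mthfd2 and Zfp33b would likewise not have passed without their sham readings. Dus1l and Vegfa each had another kept probe set, at 0.26 and 0.02 against the mean of the other arrays on the 1 shock 6 h array, so their low reading was not shared within those genes. Igfbp4 lay 4.03 from Igfbp5 on this measure. The 1 shock 6 h array is the lowest of the 5 in every profile of both sets of neighbours. The neighbours were sought by their likeness to profiles that are lowest there, so this follows from the search and supports nothing further.

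**Figure D4:**
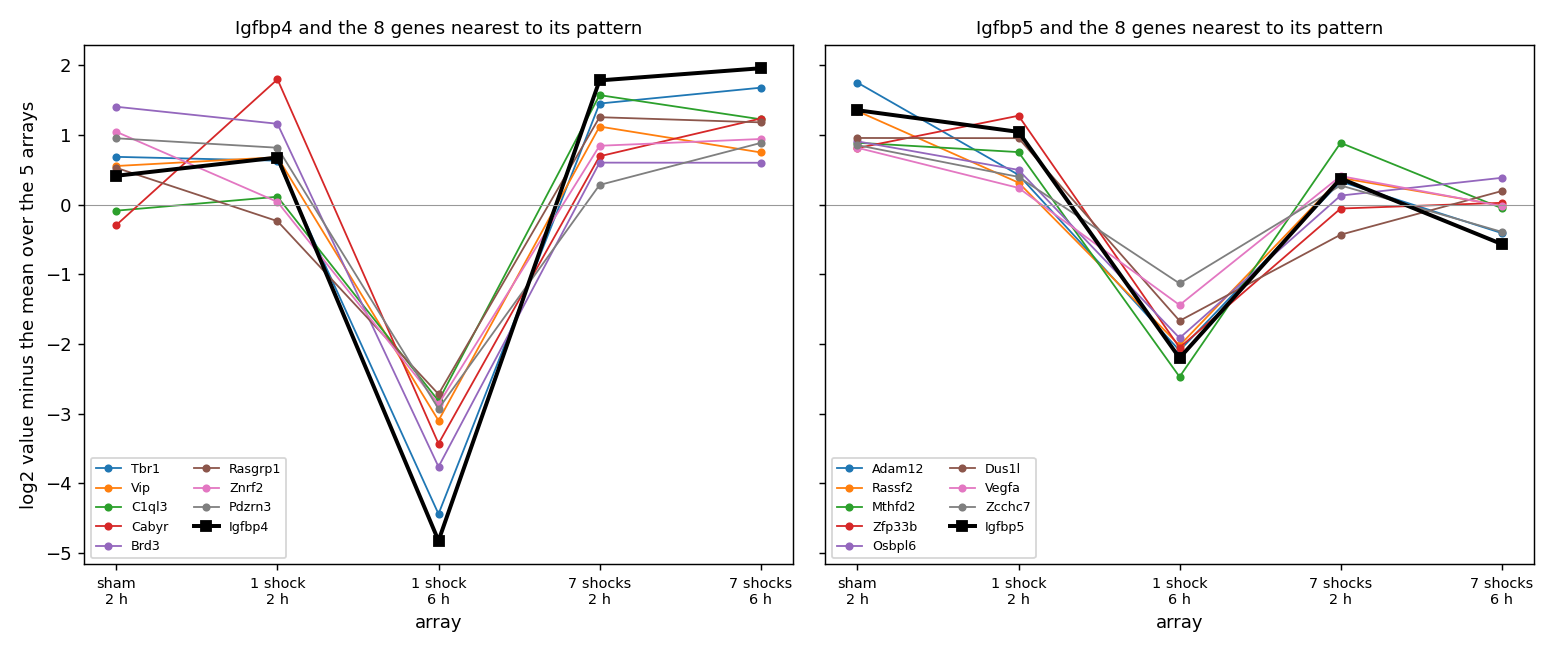
Log2 value minus the mean over the 5 arrays for Igfbp4 (left) and Igfbp5 (right), drawn in black, and for the 8 genes nearest to each, in colour. Tbr1 follows Igfbp4 within a distance of 0.64 over the 5 arrays, and Adam12 follows Igfbp5 within 0.76.

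The listed markers of excitatory neurons of cortex and amygdala found on the array read lowest at 6 h after 1 shock, as Igfbp4 did. Of 10 listed markers 5 were on the array, and their summed signal, rescaled to sham, was 159.6 on sham, 146 at 2 h after 1 shock, 10.9 at 6 h after 1 shock, 264 at 2 h after 7 shocks and 284 at 6 h after 7 shocks. Both that passed the filter, Tbr1 and the peptide gene Cck, were at least 2-fold lower on the 1 shock 6 h array than the mean of the others, beside 5.4% of all genes lower and 4.59% higher. Tbr1 was found above as the gene nearest to Igfbp4 in pattern, so its low reading there was fixed beforehand and supports nothing. It also enters the summed signal. Cck read 61.1, 58.6, 10.4, 126.6 and 101.0. The dim ones did the same: Neurod6 read 26.1, 11, 0.5, 54.6 and 37.6, and Neurod2 read 12.9, 8.7, 0.3, 46.7 and 62.8. No marker was at 0. The part of these markers in the Igfbp4 readings was not tested.

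Other marker lists gave these values on the 1 shock 6 h array against the mean of the other arrays. Leptomeningeal fibroblast markers, cells in which Igfbp2 is abundant, summed to 77.5 there and 128 to 288 elsewhere, and both that passed the filter, Col1a1 (-1.58) and Col1a2 (-1.85), were lower. Of these, Col1a1 passed only through the 7-shock arrays, with a mean of 21.6 without them. Endothelial and pericyte markers summed to 740 and 535 to 671, with 2 of 7 at least 2-fold higher, Cldn5 (1.34) and Tek (2.63), and 1 lower, Vtn (-1.36). Tek passed the filter only through the 1 shock 6 h array, with a mean of 14.9 on the others. Another kept probe set of Vtn was at -0.39, within 2-fold. Ependymal and tanycyte markers summed to 352 and 304 to 448, with Dio2 (-1.47) and Crym (-1.91) of 3 lower and the other kept one, Vim, at 0.69. Crym passed the filter only through the 7-shock arrays, with a mean of 16.0 without them. For such genes the filter helped to set the call as lower. The part of these markers in the Igfbp readings was not tested.

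Neuron classes of the hypothalamus and glia were as follows on the same measure. VMH markers summed to 2616 and 1611 to 2351, and 0 of 4 passed 2-fold (median 0.50, beside 0.07 for all genes). Astrocyte markers summed to 3759 and 3539 to 4015 with 0 of 10 past 2-fold, and oligodendrocyte markers to 5022 and 4528 to 4975 with 1 of 7 lower, Ugt8a (-1.34). These counts use the brightest probe set of each gene. Other kept probe sets reached -1.01 for Gja1, 1.28 for Slc4a4 (against -0.67 on the one used) and -1.12 for Cnp. Microglial markers summed to 1326 and 1139 to 1395 with 1 of 6 higher, C1qc (1.01). GABAergic markers summed to 359 and 468 to 715 with Gad1 (-1.38) of 3 lower. Slc32a1 was at -0.05 on the probe set used and at -1.10 on its other kept one. Markers of other hypothalamic nuclei summed to 824 and 716 to 1174, with Avp (1.43) of 9 higher, which had a mean of 25.4 on the other arrays and would not have passed the filter without this one, and Vip (-3.88), Oxt (-1.54) and Npy (-1.36) lower. Thalamic markers summed to 1032 and 632 to 837, with Tcf7l2 (1.07) of 4 higher and Ntng1 (-1.21) lower. Another kept probe set of Tcf7l2 was at 0.59. Oxt and Ntng1 passed the filter only through the 7-shock arrays, with means of 14.8 and 26.0 without them, so the filter helped to set these calls. Choroid plexus markers summed to 24.1 and 25.9 to 51.8, with none of the 7 on the array bright enough to be kept.

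The partners of the binding proteins were read from a list of 52 genes of the IGF pathway, of which 46 were on the array and 22 passed the filter. The ligands were dim. Igf1 read 3.5, 16.7, 0.7, 14.9 and 17.3, Igf2 read 25.8, 10.6, 16.8, 37.9 and 27.9, and none was kept. The receptors were kept except Insrr. Igf1r, the main signalling receptor, read 47.1, 15.8, 45.2, 68.8 and 136.8, with the 7 shock 6 h array highest. Igf2r, which clears IGF-2, read 31.0, 37.9, 48.7, 34.9 and 101.8, and it was highest on the same array.

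At 6 h after 7 shocks both receptors were at least 2-fold above sham, Igf1r at 1.03 and Igf2r at 1.19, while the insulin receptor Insr was at -0.63. In that comparison 4 of the 22 pathway genes were higher and 1 lower, beside 7.4% and 7.25% of all genes. The other higher genes were Sh2b1 (2.06), an adaptor of insulin and leptin signalling, and Adamts1 (1.83), a secreted matrix metalloprotease that passed the filter only through this 7-shock array (mean 28.1 on the others). The lower one was the kinase gene Akt2 (-1.48).

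At 2 h after 1 shock 3 of 22 were higher and 2 lower, beside 6.29% and 6.83% of all genes. The higher ones were Adamts1 (2.08), Sh2b1 (1.67) and the transcription factor gene Foxo1 (1.05), and the lower ones Igf1r (-1.37) and Akt2 (-1.01). At 2 h after 7 shocks 2 were higher, Sh2b1 (1.59) and Foxo1 (1.01), and 1 lower, Adamts1 (-2.52), beside 7.1% and 6.86%. Adamts1 thus differed from sham in opposite directions in these comparisons at the same time point, with readings of 18.2, 73.6, 16.9, 3.6 and 95.4 over the arrays. At 6 h after 1 shock 1 was higher, Sh2b1 (2.48), and 2 lower, Foxo3 (-1.73) and Ccn3 (-1.64), beside 7.25% and 7.73%. Ccn3, of the CCN family that shares the IGF binding domain, read 54.9, 29.3, 22.5, 74.6 and 83.1. Sh2b1 was past 2-fold in all 4 comparisons with sham, which share a sham reading of 9.3.

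Between 2 h and 6 h after 7 shocks 3 of 22 were higher and 3 lower, beside 6.78% and 6.96% of all genes. Adamts1 (4.35), Igf2r (1.53) and Igf1r (1.00) were the higher ones, and Grb10 (-1.64), an inhibitory adaptor of the receptors, Foxo1 (-1.43) and Gsk3b (-1.03) the lower. Between 2 h and 6 h after 1 shock 5 were lower and none higher, beside 7.86% of all genes lower and 8.19% higher, and these were Adamts1 (-2.57), Foxo3 (-1.50), the adaptor gene Irs2 (-1.44), Foxo1 (-1.41) and Akt1 (-1.01). Against 1 shock at the same time, 7 shocks gave 2 higher, Igf1r (1.40) and Grb10 (1.13), and 1 lower, Adamts1 (-4.60), at 2 h, beside 7.68% and 7.1%. At 6 h they gave 4 higher, Adamts1 (2.33), Foxo3 (1.77), Ccn3 (1.74) and Igf1r (1.48), and 3 lower, Grb10 (-1.31), Akt2 (-1.08) and Htra1 (-1.05), a serine protease of binding proteins, beside 8.6% and 8.97%. A second kept probe set of Akt2 and of Grb10 was opposite in sign to the one used, on the 1 shock 6 h array against the mean of the others (-1.14 against 0.38 for Akt2, and -0.32 against 0.55 for Grb10). This measure is not one of the 8 comparisons, so it does not show whether the second probe sets share the calls made in them. The medians of the 22 genes lay between -0.21 and 0.38 over the 8 comparisons. The protease gene of the Igfbp4 product, Pappa, was dim on every array, at 2.9 to 10.8.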

How the data were processed

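Affymetrix arrays were hybridised with labelled cDNA amplified from 2 ng of RNA of laser-microdissected tissue, per the labels' protocols. The deposited values are intensity values, 1 MAS5 signal per probe set, per the submitters' processing notes. Not given in the sources used here were the software version, the target level and the detection calls. Of 22690 probe sets, 64 controls, 691 with several gene symbols and 1555 without one in the platform annotation were left out, leaving 20380, of which 20351 matched RefSeq by gene ID with 0 symbols differing. The pseudocount of 1.2 is the 10th percentile of all values. A gene in a list was read from the brightest of its kept probe sets by mean signal. With 1 array per group no test was run, and the 2-fold call is one of size. The procedure was tested on simulated data.

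The members, lists and comparisons were chosen with earlier results of these data known. Named were all member probe sets, pathway genes past 2-fold with the ligands and receptors, the 8 genes nearest in pattern to Igfbp4 and Igfbp5, and marker genes past 2-fold on the 1 shock 6 h array. Neurod6, Neurod2, Nr5a1, Trh, Sim1, Vim, Pappa, Gja1, Slc4a4, Cnp and Slc32a1, and the Avp and Oxt readings, were added after their values were seen. Alternatives were no rescaling, quantile normalization, a pseudocount of 6.1, no filter or the upper 25%, and leaving out cross-hybridising probe sets. Python 3.11.15, NumPy 2.4.6, pandas 2.3.3 and matplotlib 3.10.9 were used.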

Additional observations from a re-analysis of the deposited data

Results flagged for a closer look

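Some probe sets of the family differed in opposite directions under the same contrast in the 2 settings where it could be made, with at least 1 of the differences past 2-fold, a condition set after the values were seen (with both required past 2-fold, none qualified). With 1 array per group the difference between the contrasts was not tested. Between 2 h and 6 h, Igfbp4 was lower after 1 shock and above 0 after 7 shocks on 4 of its 5 kept probe sets: 1437405_a_at at -5.50 and 0.17, 1423757_x_at at -2.87 and 0.01, 1437406_x_at at -2.91 and 0.04, and 1421992_a_at at -1.67 and 0.98. The value of 1423757_x_at after 7 shocks turned to -0.01 without rescaling, so its opposite direction did not hold there, and the fifth, 1423756_s_at, was lower in both (-4.31 and -0.38). The differences after 7 shocks are within 2-fold. Igfbp3 went the other way, at 0.13 after 1 shock and -1.23 after 7 shocks. For 7 shocks against 1, the Igfbp5 probe set 1422313_a_at was at -0.67 at 2 h and 1.64 at 6 h. All 6 results use the 1 shock 6 h array, whose Igfbp4 and Igfbp5 readings chose the family, so those on these genes are no independent support. The same condition was met by 5 of the 9 kept family probe sets and 13% of all kept ones for the time contrast, and by 1 of 9 and 13.3% for the contrast of shock number.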

How the results depend on the processing

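No family probe set past 2-fold changed sign under any alternative run. The counts of kept family probe sets past 2-fold are given in the order 1 shock 2 h, 1 shock 6 h, 7 shocks 2 h and 7 shocks 6 h against sham, 6 h against 2 h after 1 and after 7 shocks, and 7 shocks against 1 at 2 h and at 6 h. They were 1, 7, 3, 6, 6, 1, 3 and 7. With a pseudocount of 6.1 all 8 counts were identical, and with quantile normalization they stayed within 1.5 times. Without rescaling the count for 7 shocks at 2 h moved to 5. Without the filter, 14 probe sets could count and the counts were 3, 10, 6, 10, 10, 2, 5 and 11. That setting also changes the probe sets each array is centred on: with the original centring kept, all 14 gave 3, 10, 5, 9, 10, 3, 5 and 11. With the upper 25% only 1437405_a_at of Igfbp4 was left, and they were 0, 1, 1, 1, 1, 0, 1 and 1. Without cross-hybridising probe sets 5 were left, and they were 0, 3, 1, 4, 3, 1, 1 and 4. Of all kept probe sets past 2-fold, the share that was higher was, in the same order of comparisons, 46.5%, 44.2%, 50.1%, 49.3%, 48.3%, 49.2%, 53.2% and 52.9%, and without rescaling 32.8%, 79.4%, 89.1%, 87.3%, 87.7%, 47.1%, 93.8% and 62.2%. Igfbp4 1437405_a_at ranged over the alternatives from -5.32 to -4.26 at 6 h after 1 shock and from 1.31 to 1.88 at 2 h after 7 shocks against sham. No replicate could be left out, since each group has 1 array. No paired analysis was possible because the result comes from no test and each group has 1 array.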
